A study of Homo sapiens with 60 samples.

Results

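The level of 10 genes of insulin signalling and its FOXO branch was followed across 60 RNA-seq libraries of HT29, a long established human cell line grown from a colorectal adenocarcinoma. The genes were listed by symbol, with earlier results of these data known, and they are 10 of the 60675 genes in the table. They encode the insulin receptor (INSR), its adaptors IRS1 and IRS2, the receptor ERBB3, the PI3K inhibitor protein PIK3IP1, the transcription factors FOXO1 and FOXO3, and the FOXO targets CCNG2, SESN1 and SESN3. All 10 passed the filter on low counts. Cells were harvested after 24 h, and the 60 libraries fall into 20 groups of 3. Vehicle was DMSO (0.1% in the sample labels, 2% in the series text), and the positive control was 10 µM wortmannin, which inhibits phosphoinositide 3-kinase (PI3K). The other groups received a water extract: Zingiberis Rhizoma Recens (called fresh ginger here), Zingiberis Rhizoma (called ginger), Pinelliae Tuber, Scutellariae Radix and Zizyphi Fructus at 500, 100 or 20 µg/mL, or Coptidis Rhizoma at 290, 58 or 11.6 µg/mL. In that order they are named the high, medium and low dose. Whether the 3 libraries of a group are separate cultures is not given in the labels, so a p-value reflects the spread among these libraries and no more, and that spread may be technical.

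Insulin binding activates INSR, whose adaptors IRS1 and IRS2 recruit PI3K. PI3K makes the lipid that activates the kinase AKT, and AKT phosphorylates FOXO factors, which keeps them out of the nucleus. When PI3K signalling falls, nuclear FOXO factors are known to raise INSR, IRS2 and ERBB3, a feedback described in several epithelial cancers, and also the stress genes CCNG2, SESN1 and SESN3. SESN1 has in addition a well known control by p53, and HT29 carries mutant p53.

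The bases just before the start sites are shown because FOXO factors bind DNA directly and the results turn on these genes. RefSeq (GRCh38.p14) gave windows of 250 bases before to 50 bases after the start for 9 of the 10 genes, 15 windows in all. ERBB3 was not in the table. Each sequence runs 5′ to 3′ on the strand of the gene, and capitals mark a motif match. They are the 120 bases before the start of INSR (chr19:7294415-7294534), IRS2 (chr13:109786584-109786703), SESN1 (chr6:109094847-109094966, the most upstream of its starts) and SESN3 (chr11:95232476-95232595), and 27 bases around the match of PIK3IP1 (chr22:31292456-31292482). All 5 are on the minus strand.
INSR: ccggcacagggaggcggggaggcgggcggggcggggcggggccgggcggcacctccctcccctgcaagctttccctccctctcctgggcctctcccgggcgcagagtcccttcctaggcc
IRS2: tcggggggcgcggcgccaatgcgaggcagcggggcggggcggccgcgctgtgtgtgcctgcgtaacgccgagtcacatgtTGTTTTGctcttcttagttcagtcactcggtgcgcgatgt
SESN1: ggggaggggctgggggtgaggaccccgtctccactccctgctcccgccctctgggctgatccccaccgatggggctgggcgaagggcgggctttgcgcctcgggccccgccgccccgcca
SESN3: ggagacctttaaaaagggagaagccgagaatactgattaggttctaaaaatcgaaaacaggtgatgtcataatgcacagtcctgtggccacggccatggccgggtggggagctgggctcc
PIK3IP1: aaagagaggcTGTTTACcagaacagca
A core of the FOXO consensus, GTAAACA, was searched on both strands, on which it reads TGTTTAC in the other direction. The core of the insulin response element, CAAAACA, was searched likewise, and its other strand reads TGTTTTG. These motifs share their last 5 letters, and they cannot match at the same position. IRS2 held TGTTTTG starting 40 bases before its start, and PIK3IP1 held TGTTTAC starting 17 bases after 1 of its starts. The other 7 genes with a window held neither. Of all 35116 RefSeq windows of this length, 3.423% held the FOXO consensus and 4.915% the insulin response element core. These shares are per window and per motif. The matches above are counted by gene for either motif, and some genes have several windows, so the counts do not compare directly. A match describes letters only, and the windows of INSR and SESN1 shown are rich in G and C (78.3% and 77.5% of bases), against 51.7% for SESN3.

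Libraries held 11093708 to 34447670 counts, with a median of 23373632. All 7 colon epithelial markers were present in every library, from KRT8 at 5431 to 7989 CPM (counts scaled to a common library size) to CDX2 at 3.78 to 9.94 CPM. Of 10 markers of other cells, INS was at 0 in all 60 libraries, and CD3E, COL1A2, ALB and PTPRC were at or near 0. Another 4 were detected in every library, CD14 at 1.92 to 5.64 CPM, PECAM1 at 0.388 to 2.37, COL1A1 at 0.869 to 1.89 and ACTA2 at 0.207 to 1.27. The summed level of all 10 was 5.68 to 9.81 CPM. A group of 4 libraries stood apart from the rest along principal component 2, which carried 8.55% of the variance. They were Zizyphi high replicate 3, ginger high replicate 2, vehicle replicate 1 and fresh ginger low replicate 1. In these 4 libraries, ribosomal-protein genes took 5.85 to 7.57% of counts. The sample codes divide the libraries into 5 sets whose meaning the labels do not give. The vehicle libraries form a set of their own, and so do those of wortmannin, so a comparison with vehicle crosses sets, and that difference cannot be told apart from the treatment. The high and low doses of any 1 extract belong to the same set.

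Per kilobase of exon, ERBB3 had the highest median level (24.9 CPM per kb), followed by IRS1 (14.9), FOXO3 (11.1), SESN1 (6.64), FOXO1 (5.39), CCNG2 (4.47), IRS2 (3.30) and INSR (2.13). PIK3IP1 and SESN3 were far lower, at 0.330 and 0.284 CPM per kb. Their libraries held 8 to 62 counts of PIK3IP1 and 19 to 142 of SESN3, which limits what can be seen of them. Over the 20 group means, in plain CPM, SESN3 spanned 2.78-fold, PIK3IP1 2.07-fold, SESN1 2.06-fold, INSR 1.88-fold and IRS2 1.74-fold. ERBB3 and FOXO3 spanned least, at 1.27-fold and 1.25-fold. The lowest group mean was Scutellariae high for 6 of these genes (IRS2, ERBB3, PIK3IP1, CCNG2, SESN1 and SESN3), and the highest was wortmannin for 4 (INSR, IRS2, ERBB3 and PIK3IP1).

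**Figure D1:**
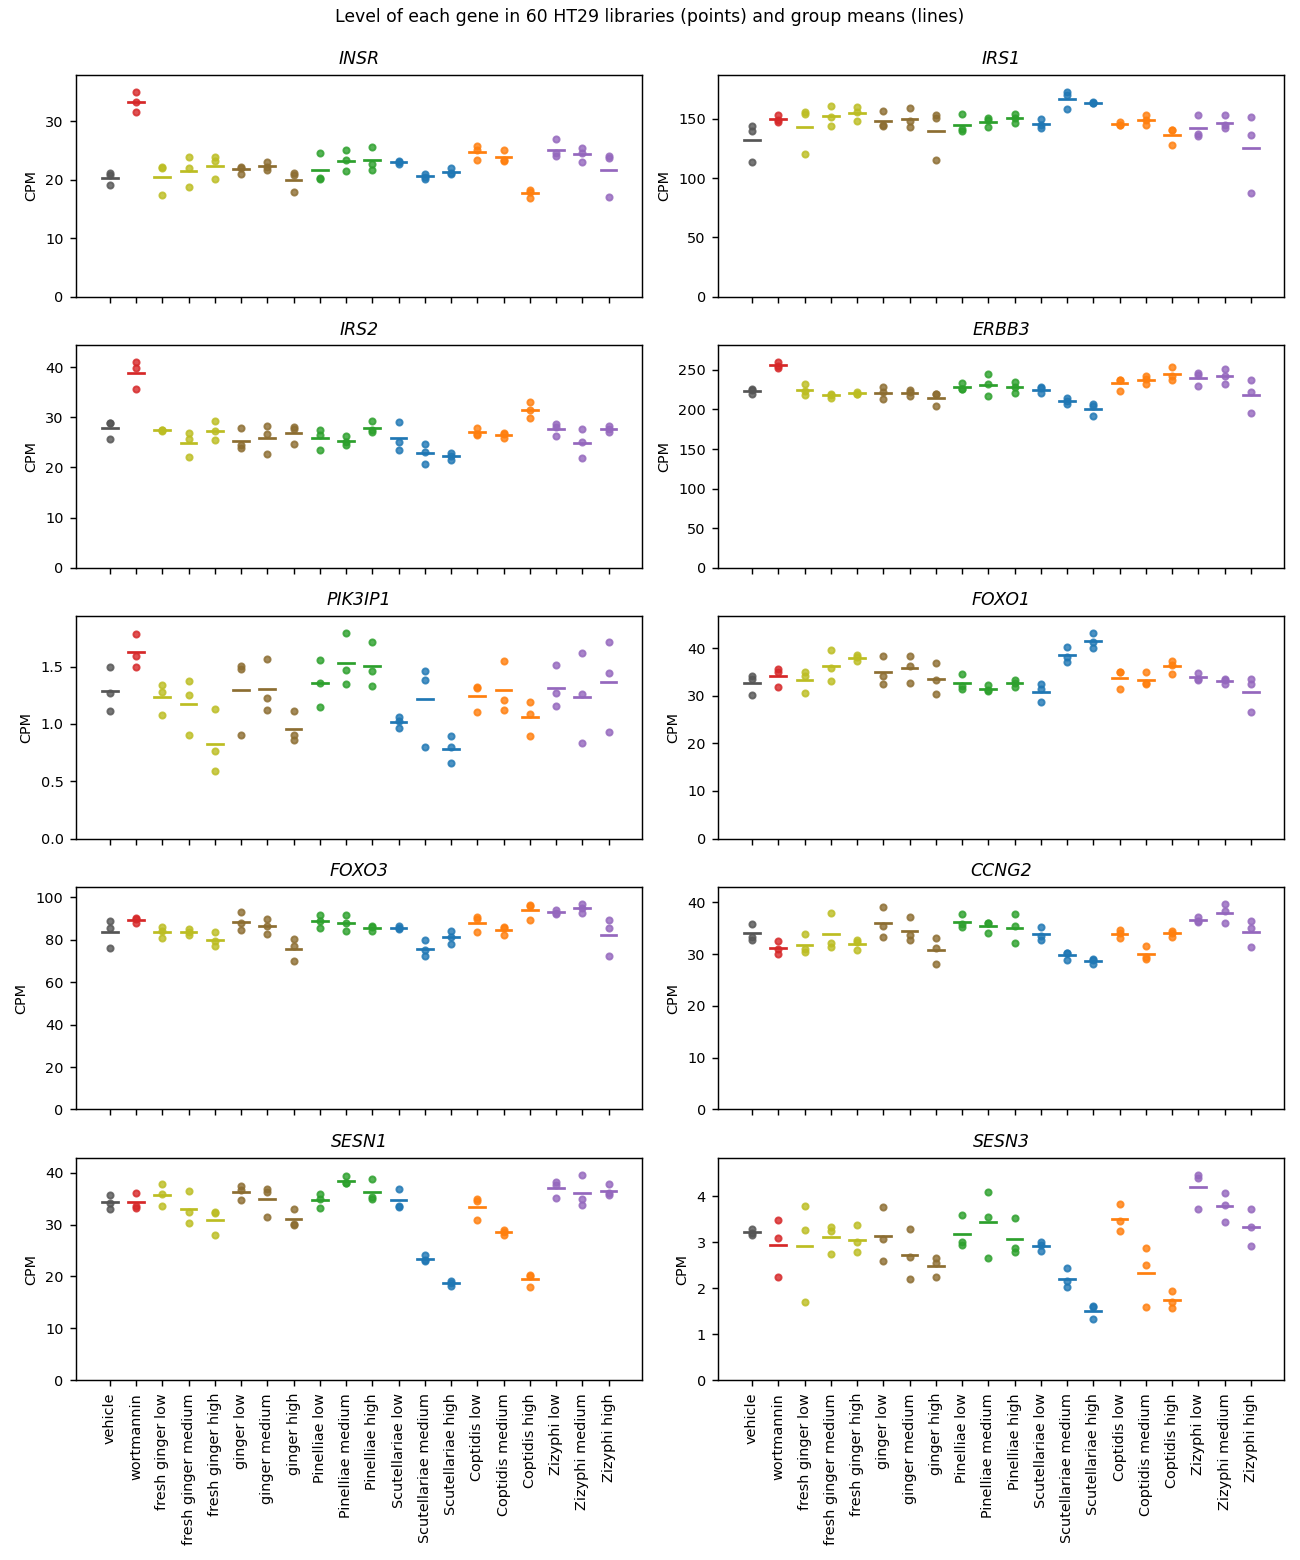
Level in CPM (vertical axes, each starting at 0) of the 10 genes in each of the 20 groups (horizontal axis). Points are the 3 libraries of a group and lines their mean. INSR and IRS2 stand highest with wortmannin, and SESN1 and SESN3 lowest with the high doses of Scutellariae and Coptidis.

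The receptor genes INSR and ERBB3 and the adaptor gene IRS2 rose with wortmannin. Of the 10 genes, 3 were called higher against vehicle and none lower (edgeR adjusted p below 0.05), where 20.6% of all 16609 genes tested were called (9.72% higher and 10.8% lower). INSR (ENSG00000171105, chromosome 19, 7112255 to 7294034 on GRCh38) was at 19.0, 20.8 and 21.2 CPM in the vehicle libraries and at 33.3, 31.5 and 35.1 CPM with wortmannin. Every wortmannin library was above every other library of the study. Means were 20.4 ± 1.17 and 33.3 ± 1.77 CPM (SD, n = 3), and the log2 change was 0.70 ± 0.09 (approximate SE, a 1.63-fold rise, edgeR adjusted p = 3.98e-08).

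IRS2, the adaptor that carries insulin signals in many tissues (ENSG00000185950, chromosome 13, 109752698 to 109786568), had 28.9, 28.9 and 25.7 CPM with vehicle and 40.9, 35.6 and 39.9 CPM with wortmannin. These groups did not overlap either, and IRS2 rose by 1.39-fold (log2 change 0.48 ± 0.08, edgeR adjusted p = 8.2e-06). ERBB3, the receptor for neuregulins that couples strongly to PI3K (ENSG00000065361, chromosome 12, 56076799 to 56103505), went from 219, 225 and 226 CPM to 252, 255 and 259 CPM. Its groups were clear of each other by a smaller margin, and it rose by 1.14-fold (log2 change 0.19 ± 0.05, edgeR adjusted p = 0.00204). IRS1 (ENSG00000169047, chromosome 2, 226731317 to 226799759) was at 113, 144 and 139 CPM with vehicle and at 147, 149 and 153 CPM with wortmannin. The groups did not overlap, but the low vehicle library is 1 of those that stood apart, and IRS1 was not called (log2 change 0.18 ± 0.10, adjusted p = 0.238). Without the 4 libraries that stood apart its change was 0.08 on the log2 scale.

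For INSR, IRS2 and ERBB3 the rise was present under all 13 alternatives run, with log2 changes of 0.54 to 0.75, 0.43 to 0.54 and 0.16 to 0.21. Against the mean of the 6 low dose groups in place of vehicle, the values were 0.54 for INSR, 0.54 for IRS2 and 0.16 for ERBB3. Libraries of wortmannin and vehicle did not overlap for 6 of the 10 genes (5 higher and 1 lower), against 39% of all genes tested. The summed level of the 10 markers of other cells was also higher, at 9.19 to 9.81 CPM with wortmannin and 7.39 to 8.14 CPM with vehicle. Its part in these changes was not tested.

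The other genes were not called with wortmannin. PIK3IP1, a membrane protein that binds PI3K and holds it down (ENSG00000100100, chromosome 22, 31281593 to 31292534), was at 1.50, 1.27 and 1.11 CPM with vehicle and at 1.60, 1.78 and 1.50 CPM with wortmannin. The wortmannin libraries were the higher ones, but at these counts the log2 change of 0.35 had an interval of -0.10 to 0.80 (adjusted p = 0.283). FOXO1 (ENSG00000150907, chromosome 13, 40469953 to 40666597) differed by 0.06 on the log2 scale (95% interval -0.08 to 0.21). For FOXO3 (ENSG00000118689, chromosome 6, 108559835 to 108684774) the difference was 0.09 (-0.02 to 0.21). Both factors are controlled mainly by phosphorylation of the protein, which these data do not measure. FOXO1 and FOXO3 each have a near-identical processed copy elsewhere in the genome (FOXO1B and FOXO3B), so that reads could be divided between copies.

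None of the 3 stress targets of FOXO factors was called with wortmannin. CCNG2, an atypical cyclin linked to cell cycle arrest (ENSG00000138764, chromosome 4, 77157151 to 77433388), had a mean of 34.0 ± 1.68 CPM with vehicle and 31.2 ± 1.33 CPM with wortmannin (log2 change -0.12, adjusted p = 0.185). It was called lower against the mean of the 6 low dose groups (-0.15, adjusted p = 0.0222). SESN1 (ENSG00000080546, chromosome 6, 108986437 to 109094819) and SESN3 (ENSG00000149212, chromosome 11, 95165513 to 95232541) encode sestrins, stress proteins that restrain mTOR complex 1, the growth kinase downstream of AKT. SESN1 was at 34.2, 32.9 and 35.7 CPM with vehicle and 33.6, 36.1 and 33.2 CPM with wortmannin. The groups lay on top of each other, and the log2 change was 0.00 (95% interval -0.13 to 0.14, adjusted p = 0.976). SESN3 changed by -0.15 with a wide interval (-0.51 to 0.22). The median log2 change of the 10 genes was 0.14, against 0.00 for all genes tested.

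**Figure D2:**
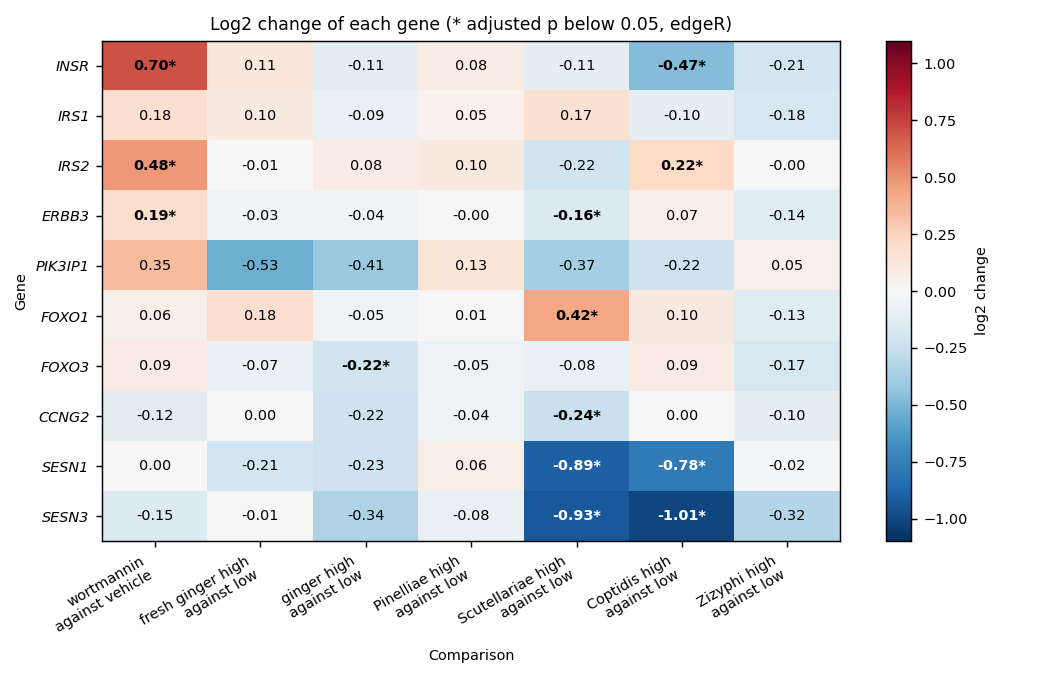
Log2 change of each of the 10 genes (rows) in 7 comparisons (columns), wortmannin against vehicle and high against low dose of each extract, coloured from blue (lower) to red (higher) and printed in each cell. Bold values with an asterisk were called by edgeR. The first column holds rises of INSR, IRS2 and ERBB3, and the columns of Scutellariae and Coptidis hold falls of SESN1 and SESN3.

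Scutellariae and Coptidis lowered both sestrin genes at the high dose. From low to high dose of Scutellariae, 5 of the 10 genes were called, 1 higher and 4 lower, where 16.3% of all genes were called (7.92% higher and 8.42% lower). SESN1 was at 33.4, 33.6 and 36.9 CPM at the low dose and at 19.2, 18.2 and 18.7 CPM at the high dose. The high dose libraries were close together and far below those of the low dose. The log2 change was -0.89 ± 0.07, a 1.86-fold fall (edgeR adjusted p = 6.85e-15). SESN3 was at 2.94, 2.81 and 3.00 CPM at the low dose and 1.62, 1.32 and 1.59 CPM at the high dose. It fell by 1.91-fold, again with no overlap (log2 change -0.93 ± 0.20, edgeR adjusted p = 0.000341).

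With Coptidis, 4 genes were called from low to high dose, 1 higher and 3 lower, where 52.3% of all genes were called (27.1% higher and 25.3% lower). The share of the 10 genes was thus below that of all genes. SESN1 was at 34.9, 34.5 and 30.9 CPM at the low dose and at 20.3, 18.0 and 20.2 CPM at the high dose. All high dose libraries were lower, and SESN1 fell by 1.72-fold (log2 change -0.78 ± 0.07, edgeR adjusted p = 3.63e-14). SESN3 went from 3.46, 3.83 and 3.25 CPM to 1.57, 1.95 and 1.70 CPM. It fell by 2.02-fold, and its groups did not overlap (log2 change -1.01 ± 0.18, edgeR adjusted p = 5.18e-06). These 4 falls were called under all 13 alternatives run for each.

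At the medium dose, SESN1 was already lower with Scutellariae, at 24.1, 23.1 and 23.0 CPM, all under its low dose libraries. This was a fall of 1.48-fold against the low dose (log2 change -0.57 ± 0.07, edgeR adjusted p = 2.18e-08). With the medium dose of Coptidis, SESN1 was at 28.0, 28.6 and 28.9 CPM, also clear of the low dose. That log2 change, -0.23 ± 0.07, was not called (adjusted p = 0.0704), but it was called without the 4 libraries that stood apart (adjusted p = 0.0322) and without Coptidis low replicate 3 (adjusted p = 0.0301). SESN3 was 2.03, 2.16 and 2.44 CPM at the medium dose of Scutellariae and 2.51, 2.88 and 1.60 CPM at that of Coptidis. The means lay between those of the low and high doses for both extracts, and neither change from the low dose was called (adjusted p = 0.301 and 0.125). Without the 4 libraries that stood apart, the SESN3 change with Coptidis was called (-0.56, adjusted p = 0.0481).

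SESN2, the third sestrin gene and a known target of the stress factor ATF4, went the other way. It was at a mean of 14.5 ± 0.987 CPM at the low dose of Coptidis, 23.3 CPM at the medium dose and 122 ± 5.51 CPM at the high dose. The rise from low to high dose was 3.07 ± 0.09 on the log2 scale (edgeR adjusted p = 1.32e-33). With Scutellariae, SESN2 went from 11.6 ± 0.156 to 15.5 ± 1.06 CPM, a rise of 0.42 ± 0.09 (adjusted p = 0.000754). At the medium dose of Scutellariae, where SESN1 was already lower, SESN2 was at 10.4 ± 1.37 CPM. Between the low and high doses of both extracts, SESN1 and SESN3 fell and SESN2 rose.

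**Figure D3:**
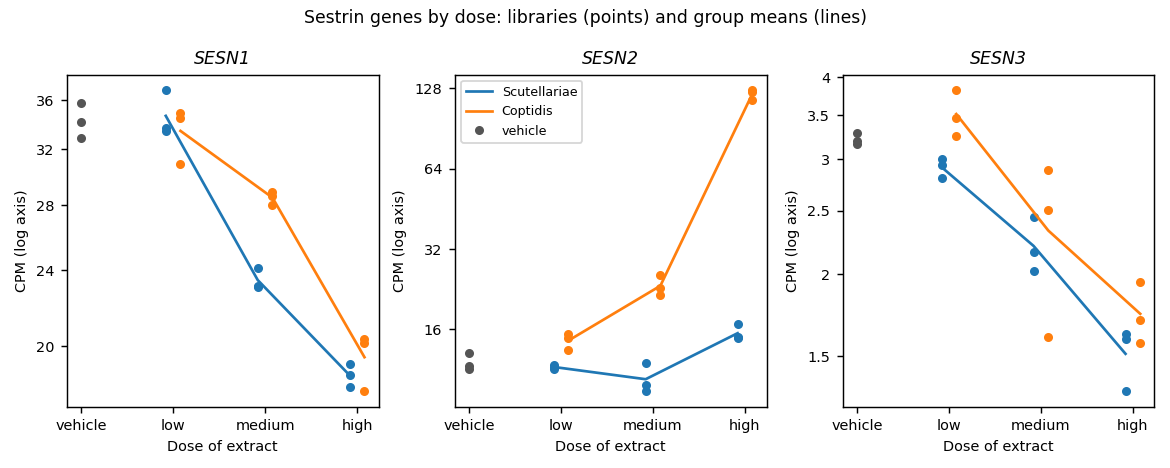
Level in CPM (logarithmic vertical axes) of SESN1, SESN2 and SESN3 in vehicle and at the low, medium and high dose of Scutellariae and Coptidis. Points are libraries and lines join group means. Mean SESN1 falls from 34.7 to 18.7 CPM with Scutellariae and from 33.4 to 19.5 CPM with Coptidis, while mean SESN2 rises to 122 CPM with Coptidis.

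CCNG2 was called lower with Scutellariae. It was at 33.4, 32.8 and 35.3 CPM at the low dose and 29.0, 28.1 and 28.8 CPM at the high dose. The groups did not overlap, and the fall was 1.18-fold (log2 change -0.24 ± 0.07, edgeR adjusted p = 0.00628). Without Scutellariae low replicate 3 it was not called (-0.20, adjusted p = 0.0668). With Coptidis, CCNG2 had the same mean of 34.0 CPM at the low and high doses (log2 change 0.00, 95% interval -0.13 to 0.13). At the medium dose of Coptidis it was at 31.6, 29.1 and 29.3 CPM, below all libraries of the low and high doses. The change from low to medium dose was not called.

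Of the FOXO factor genes, FOXO1 rose with Scutellariae. It was at 28.7, 32.4 and 31.4 CPM at the low dose of Scutellariae, 40.3, 37.1 and 38.2 CPM at the medium dose, and 41.3, 43.1 and 40.0 CPM at the high dose. All libraries of the 2 upper doses were above the low dose. FOXO1 rose by 1.34-fold from low to high dose (log2 change 0.42 ± 0.07, edgeR adjusted p = 9.82e-06). From low to medium dose it rose by 0.32 ± 0.07 on the log2 scale (adjusted p = 0.00332), but not without Scutellariae low replicate 1 (0.27, adjusted p = 0.0626) or medium replicate 1 (0.28, adjusted p = 0.0548). With Coptidis the low to high change of FOXO1 was 0.10 (95% interval -0.04 to 0.24).

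FOXO3 was not called from low to high dose with Scutellariae (-0.08, interval -0.19 to 0.03) or Coptidis (0.09, interval -0.02 to 0.20). At the medium dose of Scutellariae it was at 79.7, 72.3 and 75.2 CPM, its lowest mean of the 20 groups. The low dose libraries were all higher, at 86.3, 85.3 and 85.0 CPM. That change from low to medium dose was not called, but it was without the 4 libraries that stood apart (-0.18, adjusted p = 0.0053). In Zizyphi the low to high change of FOXO3 was not called by edgeR (-0.17, adjusted p = 0.07), but it was by DESeq2 (-0.18, adjusted p = 0.0342). Of the 6 extracts, edgeR called the low to high change of FOXO3 in ginger alone. There FOXO3 was the 1 called gene of the 10, and 0.915% of all genes were called. FOXO3 was at 88.0, 93.1 and 84.6 CPM at the low dose of ginger and at 77.1, 70.2 and 80.2 CPM at the high dose. The groups did not overlap, and the log2 change was -0.22 ± 0.06 (edgeR adjusted p = 0.031). The lowest value belongs to ginger high replicate 2, which is 1 of the libraries that stood apart. Without that replicate the change was -0.18 (adjusted p = 0.349), and without all 4 such libraries -0.17 (adjusted p = 0.0605). It was also not called without ginger high replicate 1 (adjusted p = 0.0734), low replicate 1 (0.112) or low replicate 2 (0.256). CCNG2 and SESN1 had changes of about the same size in ginger (-0.22 and -0.23) and missed the threshold (adjusted p = 0.0992 and 0.107). Both were called without the 4 libraries that stood apart (-0.28 and -0.27, adjusted p = 0.0267 and 0.0419).

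Among the receptors and adaptors, INSR and IRS2 were called with Coptidis, in opposite directions. INSR was at 25.0, 23.3 and 25.7 CPM at the low dose and 17.0, 17.9 and 18.3 CPM at the high dose. The high dose group had the lowest mean of all 20 groups, and INSR fell by 1.39-fold (log2 change -0.47 ± 0.09, edgeR adjusted p = 1.46e-05). At the medium dose it was still at 23.9 ± 1.01 CPM. Against vehicle the high dose was lower by less and was not called (-0.20, adjusted p = 0.0626), while it was called without the 4 libraries that stood apart (-0.24, adjusted p = 0.00788). IRS2 went from 26.7, 27.8 and 26.5 CPM at the low dose of Coptidis to 31.4, 33.0 and 29.9 CPM at the high dose. It rose by 1.16-fold with no overlap (log2 change 0.22 ± 0.08, edgeR adjusted p = 0.015). Without Coptidis high replicate 2 or low replicate 3, IRS2 was not called (adjusted p = 0.0803 and 0.0558).

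With Scutellariae, IRS2 and ERBB3 were at their lowest. ERBB3 was at 226, 229 and 220 CPM at the low dose and 192, 204 and 207 CPM at the high dose. The groups did not overlap, and ERBB3 fell by 1.12-fold (log2 change -0.16 ± 0.05, edgeR adjusted p = 0.0104). The call was lost without Scutellariae high replicate 1 (-0.12, adjusted p = 0.151), low replicate 1 (-0.16, adjusted p = 0.0521) or low replicate 2 (-0.15, adjusted p = 0.0753), and with no filter on low counts (adjusted p = 0.151). IRS2 was at 23.6, 29.1 and 25.0 CPM at the low dose and at 21.5, 22.3 and 22.9 CPM at the high dose. Its libraries did not overlap, but the change of -0.22 ± 0.08 just missed the threshold (adjusted p = 0.0522). It was called without Scutellariae low replicate 1 (-0.28, adjusted p = 0.0278).

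IRS1 was at 150, 145 and 142 CPM at the low dose of Scutellariae and 163, 163 and 164 CPM at the high dose. The libraries were apart, yet the change of 0.17 ± 0.10 was not called (adjusted p = 0.311). Its error here comes from a spread shared over all 60 libraries, which includes the 4 that stood apart. Without those libraries the same change was called (0.18, adjusted p = 0.00507), and also with only the libraries compared (0.17, adjusted p = 0.000703). With Coptidis IRS1 changed by -0.10 and was not called (adjusted p = 0.454), but it was called lower with only the libraries compared (-0.11, adjusted p = 0.0415).

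For Scutellariae, low and high dose libraries did not overlap for any of the 10 genes (2 higher and 8 lower), against 37.5% of all genes tested. For Coptidis this held for 5 of 10, against 61.4% of all genes. The median log2 change of the 10 genes was -0.19 with Scutellariae and -0.05 with Coptidis, against -0.01 and 0.00 for all genes tested. The summed markers of other cells were at 7.27 to 8.03 CPM at the low and 5.68 to 5.80 CPM at the high dose of Scutellariae, and at 6.81 to 7.73 and 5.71 to 6.72 CPM for Coptidis. Coptidis high also had 5.94 to 6.71% of its counts in ribosomal-protein genes, above the 4.59 to 5.41% of the other groups outside the libraries that stood apart. The part of either in these changes was not tested. In bulk RNA, fewer cells of a type and less RNA per cell cannot be told apart.

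Fresh ginger, Pinelliae and Zizyphi moved none of these genes past the threshold. Between their low and high doses these extracts gave 0 calls among the 10 genes by edgeR, where 1.79%, 0.0421% and 0.0482% of all genes were called. At an unadjusted edgeR p below 0.05 there were 2, 0 and 3 of the 10, and 2468, 543 and 4053 of all 16609 genes. DESeq2 called 0, 0 and 2 of the 10, and 396, 6 and 1185 of all genes. In Pinelliae the largest change was 1.09-fold, in PIK3IP1, and in 0 of the 10 genes were the groups apart, against 10.8% of all genes tested. In fresh ginger the largest was PIK3IP1, which went from 1.08, 1.34 and 1.28 CPM to 1.13, 0.586 and 0.763 CPM. These groups overlapped (log2 change -0.53, 95% interval -1.06 to -0.0049, adjusted p = 0.354). The interval is approximate and leaves out 0, while the unadjusted edgeR p was 0.0574. The 2 genes below 0.05 unadjusted in fresh ginger were SESN1 (-0.21, adjusted p = 0.102) and FOXO1 (0.18, adjusted p = 0.229).

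In Zizyphi, 8 of the 10 genes were lowest of the high dose group in the same library, replicate 3. The share of all genes that were lowest in it was not counted. High replicate 3, which stood apart, had 17.0 CPM of INSR, 87.6 of IRS1, 195 of ERBB3, 26.6 of FOXO1 and 72.3 of FOXO3. The other 2 high dose libraries had 24.0 and 23.8 CPM of INSR, 151 and 136 of IRS1, 237 and 223 of ERBB3, 33.5 and 32.4 of FOXO1, and 89.1 and 85.6 of FOXO3. PIK3IP1 (0.929 CPM against 1.71 and 1.44), CCNG2 (31.3 against 36.3 and 35.0) and SESN3 (2.92 against 3.32 and 3.73) were lowest in it too, while IRS2 and SESN1 were highest in it. With high replicate 1 left out, INSR, IRS1, ERBB3, FOXO1 and FOXO3 were called lower, with log2 changes of -0.35 (IRS1) to -0.21 (FOXO1). In that setting 4376 of all genes were called, against 8 in the main fit. When high replicate 2 was left out, FOXO3 alone of the 10 was called (-0.21, adjusted p = 0.0354), and 1603 of all genes. Without replicate 3 none of the 10 was, and 2 of all genes were.

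The 4 libraries that stood apart were the 4 lowest of all 60 for IRS1. They had 87.6 CPM (Zizyphi high replicate 3), 113 (vehicle replicate 1), 115 (ginger high replicate 2) and 120 (fresh ginger low replicate 1), while the other 56 libraries had at least 128 CPM, with a median of 149. Counted from the lowest of the 60 libraries, they took ranks 1, 3, 4 and 5 for FOXO1 and ranks 2, 3, 5 and 8 for INSR. For FOXO3 their ranks were 1, 3, 5 and 12. SESN1 was not low in them, with ranks of 23 to 54. These libraries stood apart on a component computed over all genes tested, these genes included, so low ranks in them can follow from that choice. How many other genes are lowest in these 4 libraries was not counted. The ribosomal-protein share was 5.85 to 7.57% in these libraries, and whether it is related to IRS1 was not tested.

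**Figure D4:**
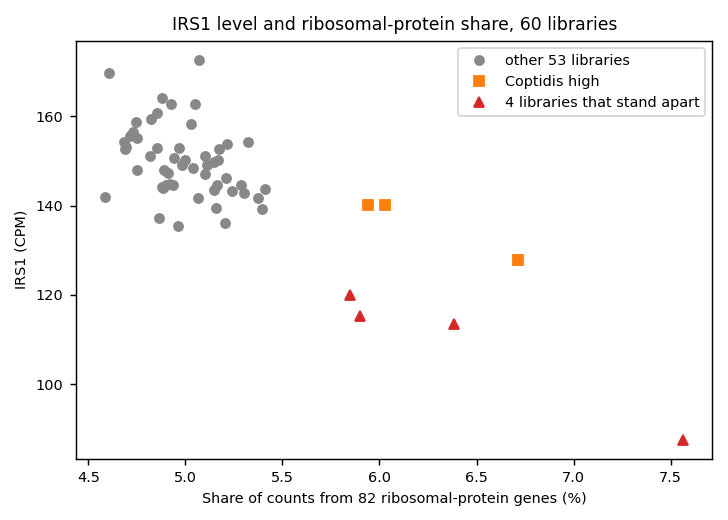
IRS1 level (vertical axis, CPM, not starting at 0) against the share of counts from 82 ribosomal-protein genes (horizontal axis, percent) in the 60 libraries. The 4 libraries that stand apart (triangles) have the lowest IRS1, 87.6 to 120 CPM, and Coptidis high (squares) has 128 to 140 CPM.

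Medium against low dose gave 2 calls over the 60 tests of the 10 genes in 6 extracts, both in Scutellariae (FOXO1 higher and SESN1 lower). Over all genes, 0.776% of such tests were called, and 3.35% in Scutellariae. Low dose against vehicle gave 0 of 60 calls by edgeR and by DESeq2, where 0.0913% of all such tests were called by edgeR. At an unadjusted edgeR p below 0.05 there were 5 of 60. Of these, 4 were in Zizyphi and 1 in Coptidis, where 3100 and 1799 of all 16609 genes were below it. The other extracts had 0, where 747 to 1888 of all genes were below it. The smallest adjusted p of the 60 tests was 0.141, for INSR in Zizyphi (0.30 on the log2 scale).

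Against vehicle, the high doses gave 12 calls among the 10 genes, 8 in Scutellariae and 4 in Coptidis, where 20.3% and 53.8% of all genes were called. These comparisons share the vehicle libraries and cross sets. In Scutellariae, SESN1 (log2 change -0.87) and SESN3 (-1.07) were lower, and IRS2 was lower as well (-0.32 ± 0.08, edgeR adjusted p = 0.00229), while FOXO1 was higher (0.34 ± 0.07, adjusted p = 0.000262). These 4 calls held under all 12 alternatives run. PIK3IP1 had its lowest level in this group, 0.896, 0.795 and 0.663 CPM against 1.50, 1.27 and 1.11 CPM with vehicle. The groups did not overlap and the change of -0.71 ± 0.24 was called (edgeR adjusted p = 0.0289), but 8 of the 12 alternatives lost the call, among them leaving out vehicle replicate 1 (-0.60, adjusted p = 0.134), vehicle replicate 2 (-0.70, adjusted p = 0.0721), Scutellariae high replicate 2 (-0.71, adjusted p = 0.0639) or high replicate 3 (-0.57, adjusted p = 0.155).

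IRS1 was called higher against vehicle in Scutellariae high (0.30 ± 0.10, edgeR adjusted p = 0.0301). Without vehicle replicate 1, the low library of that group, the change was 0.21 (adjusted p = 0.262), and the call was also lost without any 1 of the 3 Scutellariae high libraries (adjusted p = 0.0638, 0.0709 and 0.0737). ERBB3 was lower (-0.15 ± 0.05, edgeR adjusted p = 0.0149), and 6 of 12 alternatives lost that call. They included leaving out Scutellariae high replicate 1 or 2 (-0.11 and -0.15, adjusted p = 0.194 and 0.0539) and vehicle replicate 2 or 3 (both -0.13, adjusted p = 0.0923 and 0.098). CCNG2 was lower (-0.24 ± 0.07, edgeR adjusted p = 0.00475), except without vehicle replicate 3 (-0.19, adjusted p = 0.061).

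In Coptidis high against vehicle, SESN1 (-0.81 ± 0.07, edgeR adjusted p = 1.29e-14) and SESN3 (-0.88 ± 0.19, adjusted p = 8.58e-05) were lower under all 12 alternatives. ERBB3 (0.13 ± 0.05, edgeR adjusted p = 0.016) and FOXO3 (0.16 ± 0.05, adjusted p = 0.00975) were called higher. Without vehicle replicate 1 neither was (0.12 and 0.10, adjusted p = 0.0736 and 0.158), and ERBB3 also lost its call without Coptidis high replicate 3 (0.11, adjusted p = 0.102). The high doses of fresh ginger, ginger, Pinelliae and Zizyphi gave 0 calls among the 10 genes against vehicle, where 2.09%, 0.789%, 0.187% and 0.0181% of all genes were called. At an unadjusted edgeR p below 0.05 there were 4, 4, 1 and 0 of the 10, and 3012, 1425, 1905 and 749 of all 16609 genes. DESeq2 called 0 of the 10 in each.

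The difference between Scutellariae and Coptidis in their low to high change was tested directly for each gene, although the doses differ (500 against 20 µg/mL, and 290 against 11.6 µg/mL). It was called for 5 of the 10 genes, where 38.8% of all genes were called. FOXO1 changed more upward with Scutellariae, by 0.32 ± 0.10 on the log2 scale, and INSR by 0.37 ± 0.13, since it fell with Coptidis. IRS2, ERBB3 and CCNG2 changed more downward with Scutellariae (-0.44, -0.23 and -0.24). For SESN1 and SESN3 no difference was called. It was -0.11 for SESN1 (95% interval -0.31 to 0.08) and 0.08 for SESN3 (-0.46 to 0.62), and so wide an interval does not show that SESN3 fell alike.

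Other genes of the pathway came from lists of receptors and adaptors, of PI3K, AKT and mTOR components, of further FOXO targets, and of close relatives of the 10 genes. With wortmannin, 2 of 15 tested receptors and adaptors rose and 1 fell, where 9.72% of all genes rose and 10.8% fell. IGF1R, the receptor closest to INSR, rose by 0.38 ± 0.09 on the log2 scale (edgeR adjusted p = 0.00215), though not without vehicle replicate 1 (0.29, adjusted p = 0.0562). ERBB2, the partner of ERBB3, rose by 0.24 ± 0.05 (adjusted p = 0.00034). GRB2, an adaptor to RAS, fell by 0.14 on the log2 scale (adjusted p = 0.0114), but was not called without vehicle replicate 1 (-0.11, adjusted p = 0.0966) or wortmannin replicate 2 (-0.12, adjusted p = 0.064). Of 29 PI3K, AKT and mTOR genes 4 rose and 5 fell against the same shares, such as the lipid phosphatase INPPL1 (0.27 ± 0.05) and the mTOR activator RHEB (-0.33 ± 0.06). Among the falls, AKT1 was lost in 10 of 13 alternatives, EIF4EBP1 in 5 and PIK3R3 in 4.

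Of 19 further FOXO targets, 4 rose with wortmannin and 2 fell (9.72% and 10.8% of all genes). The fall of MAP1LC3B was lost in 11 of 13 alternatives (edgeR adjusted p = 0.0478). TXNIP, a brake on glucose uptake, rose from 59.7 ± 1.65 to 100.4 ± 2.01 CPM (edgeR adjusted p = 9.3e-15), and TNFSF10, the death ligand TRAIL, from 6.99 ± 1.02 to 11.6 ± 0.791 CPM (adjusted p = 5.28e-06). CDKN1B, the cell cycle inhibitor p27 and a much studied FOXO target, fell by 0.25 on the log2 scale (adjusted p = 0.00027). FOXO4, the third FOXO factor gene tested, rose by 0.39 ± 0.09 (adjusted p = 0.000797), and CCNG1, the relative of CCNG2, fell by 0.30 on the log2 scale (adjusted p = 0.00147). The median log2 changes of the receptor, PI3K and FOXO target lists were 0.06, 0.06 and 0.13, against 0.00 for all genes tested.

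From low to high dose of Scutellariae, 2 of the 19 FOXO targets rose and 7 fell, where 7.92% of all genes rose and 8.42% fell. Of the falls, RBL2 was lost in 8 of 13 alternatives and ATG14 in 7. TNFSF10 fell from 8.23 ± 0.441 to 3.30 ± 0.428 CPM (log2 change -1.30 ± 0.13, edgeR adjusted p = 4.33e-11), TXNIP by 0.70 on the log2 scale (adjusted p = 1.44e-13), and catalase (CAT), which breaks down hydrogen peroxide, by 0.35 (adjusted p = 2.7e-08). SESN1, SESN3 and CCNG2 fell in the same comparison. Among receptors and adaptors 6 of 15 rose and 2 fell, led by the receptor MET (0.54 ± 0.08, edgeR adjusted p = 3.61e-07). PTPN1 was lost in 6 of 13 alternatives, PTPN11 in 5, and GRB10 and GRB14 in 3 each. Of the 29 PI3K, AKT and mTOR genes 2 rose and 2 fell, no larger a share than the 7.92% and 8.42% of all genes, and among them the mTOR inhibitor DEPTOR fell by 0.88 (adjusted p = 2.35e-06).

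Between the low and high dose of Coptidis, 13 of the 19 FOXO targets rose and 3 fell, where 27.1% of all genes rose and 25.3% fell. TXNIP rose from 32.3 ± 1.05 to 154 ± 2.33 CPM, MAP1LC3B, the autophagosome protein, from 45.9 ± 2.01 to 172 ± 3.90 CPM, and FBXO32, a ubiquitin ligase of muscle atrophy, from 17.8 ± 0.923 to 45.7 ± 3.02 CPM (edgeR adjusted p = 7.54e-35, 2.86e-33 and 4.07e-22). SESN1 and SESN3 fell against this direction, and CCNG2 was not called. At the medium dose of Coptidis, TXNIP was lower than at the low dose, at 22.0 ± 0.738 CPM. Both doses were below vehicle, which was at 59.7 ± 1.65 CPM. GRB10, an adaptor that holds INSR signalling down, rose from 8.81 ± 1.29 to 43.8 ± 4.98 CPM (edgeR adjusted p = 4.83e-26), in the comparison in which INSR itself fell. Of 29 PI3K, AKT and mTOR genes 5 rose and 8 fell, which is near or below those shares, among them the PI3K subunit PIK3R2 (-1.14 ± 0.06) and AKT1 (-0.58 ± 0.05). The median log2 change of the FOXO targets was 0.29 with Coptidis and -0.07 with Scutellariae. In the other 4 extracts the low to high change was called for 2 genes of these lists, MET and SOD2 in fresh ginger (adjusted p = 0.0329 and 0.0399), and both were lost without fresh ginger low replicate 1 (adjusted p = 0.527 and 0.285).

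Across the 20 group means, SESN1 and SESN3 followed each other most closely of the 10 genes (Pearson r = 0.90), ERBB3 followed FOXO3 (0.77) and IRS2 (0.73), and FOXO1 ran opposite to SESN1 (-0.74). Over all genes tested, those most like SESN1 were NOX1, an NADPH oxidase of colon epithelium (0.98), and CD200 (0.97). SESN3 was most like MALRD1 (0.93) and HNF4G (0.92), an intestinal nuclear receptor, and FOXO1 most like DCBLD2 (0.89) and MET (0.87). INSR was nearest to VWA2 and ATP9A (0.90 each), IRS2 to PARP12 and C1QTNF1 (0.92 each), and ERBB3 to ZKSCAN1 (0.94) and DENND2B (0.92). These values describe 20 means that share doses, sets and the few groups with large changes, and genes that were picked as the most similar have high values by that choice.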

How the data were processed

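Per the labels, total RNA of 60 libraries was prepared with a directional kit and sequenced as 100 bp paired reads. The authors deposited expected counts per gene, and the submitters' processing notes name RSEM 1.3.3, STAR 2.7.3a, Trim Galore 0.6.5, FastQC 0.11.9 and the build GRCh38. The annotation and the strand setting of the counting are not given in the sources used here, so reads of antisense genes overlapping IRS2, PIK3IP1, SESN1 and SESN3 may be included. Of the values, 8.755% were not whole, and all were rounded. The table's 210 columns of other samples were not used. Positions and exon lengths are from GENCODE 29.

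The rounded counts went into edgeR 4.0.16 under R 4.3.3 (TMM scaling, filterByExpr, robust quasi-likelihood test, 1 coefficient per group, 40 residual degrees of freedom). P-values of all 16609 genes were adjusted (Benjamini-Hochberg) within each of 26 comparisons, and a gene was called below 0.05. CPM uses TMM-scaled library sizes, except for the cell type markers and their sums, where it uses total counts without TMM scaling. Standard errors are approximate, the absolute log2 change divided by the square root of F, and 95% intervals use them. The fit was tested on simulated counts. No library was a copy of another (smallest chi-square per gene 2.042). The genes and lists were chosen with earlier results of these data known. Named genes were the 10, up to 3 called genes of each list by smallest p in wortmannin against vehicle and in each high against low comparison, and 2 most similar genes for each. List genes that are named for a call lost in several alternatives were picked with those values in view. A search of the proteins for AKT sites was not run. Alternatives were DESeq2 size factors, no filter, the DESeq2 1.42.0 Wald test, a replicate block, leaving out each library or the 4 that stood apart, only the libraries compared, the low doses as reference and a trend on log10 dose.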

Additional observations from a re-analysis of the deposited data

Results flagged for a closer look

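For 5 of the 10 genes, the change from low to high dose differed between Scutellariae and Coptidis in the test of that difference itself (edgeR, an interaction term over the same 60 libraries). In this test 38.8% of all genes were called. The difference, Scutellariae minus Coptidis on the log2 scale, was 0.37 for INSR (adjusted p = 0.0183), with changes of -0.11 in Scutellariae and -0.47 in Coptidis. For IRS2 it was -0.44 (adjusted p = 0.00124), with changes of -0.22 and 0.22. For ERBB3 the value was -0.23 (adjusted p = 0.00358), with changes of -0.16 and 0.07. FOXO1 differed by 0.32 (adjusted p = 0.00791), with changes of 0.42 and 0.10, and CCNG2 by -0.24 (adjusted p = 0.0301), with changes of -0.24 and 0.00. INSR, IRS2 and FOXO1 were called under all 18 alternatives run. ERBB3 was lost with no filter on low counts (-0.22, adjusted p = 0.0811). CCNG2 was lost in 8 of the 18. These were no filter (adjusted p = 0.155) and leaving out Coptidis high replicate 1 or 3, Coptidis low replicate 2 or 3, Scutellariae high replicate 2, or Scutellariae low replicate 1 or 3 (adjusted p = 0.0502 to 0.0898). Other genes gained a call. IRS1 was called with no filter (0.28, adjusted p = 0.0148), without the 4 libraries that stood apart (0.28, adjusted p = 0.000683) and with only the libraries compared (0.27, adjusted p = 0.000397). FOXO3 was called without those 4 libraries (-0.16, adjusted p = 0.0257) and with only the libraries compared (-0.17, adjusted p = 0.0357). The extracts lie in different sets and were given at different doses, and neither can be told apart from the extract.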

How the results depend on the processing

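Of 260 pairs of a gene and a comparison, 32 were called, 19 of them under every alternative run, and none of the called pairs changed direction. The other 13 lost the call in some alternative and 22 uncalled pairs gained one. No filter on low counts lost 6 calls and gained 4, leaving out the 4 libraries that stood apart lost 3 and gained 12, only the libraries compared lost 5 and gained 8, and the DESeq2 Wald test lost 1 and gained 6. The share of all genes called differed by comparison, for high doses against vehicle from 0.0181% (Zizyphi) to 53.8% (Coptidis). Calls over all genes shifted with the setting too. From low to high dose of Scutellariae they were 2714 in the main fit and 2296 with no filter. They were 3669 without the 4 libraries, 4139 with only the libraries compared and 2661 with DESeq2. For Coptidis these counts were 8694, 8551, 9677, 9149 and 8468. The labels number replicates alike in all groups, but deviations from the group means correlated above 0.1 for every pair in 1 of 25 comparisons only (range -0.37 to 0.34), and the replicate block changed 0 calls of the 10 genes. From low to high dose of ginger, 1 gene was called, 2 without the 4 libraries, 0 with only the libraries compared, 3 with DESeq2, and 0 to 2 when leaving out 1 library (over all genes 152, 162, 34, 189, and 63 to 158). In Zizyphi the count of 0 became 2 with DESeq2 and ranged from 0 to 5 when leaving out 1 library (over all genes 8 against 1185 with DESeq2, 4376 without high replicate 1 and 1603 without high replicate 2). For medium against low dose, 2 calls became 6 without the 4 libraries and 4 with only the libraries compared, and ranged from 1 to 3 when leaving out 1 library (over all genes 773, 1338 and 1060). For low dose against vehicle, 0 became 2 with no filter (91 and 3225 over all genes). The cause of these shifts was not tested. With 8 to 62 counts of PIK3IP1 and 19 to 142 of SESN3 per library, small changes of these genes could not be seen.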

Other observations

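IGF1R, the receptor closest to INSR, was looked at across groups after its values were seen. It stood at 88.1, 109 and 108 CPM with vehicle and at 133, 131 and 133 CPM with wortmannin. At the high dose of Coptidis it was at 62.0, 66.9 and 66.9 CPM, all below the low dose libraries at 121, 104 and 106 CPM. This was a log2 change of -0.75 ± 0.09 (edgeR adjusted p = 1.93e-09), in the comparison in which INSR fell by 0.47 on the log2 scale. With Scutellariae neither receptor gene was called from low to high dose (-0.02 for IGF1R and -0.11 for INSR).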
